A study of Mus musculus with 12 samples.

Results

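H3K4me2 regions that stood in the control list and in no interval of the LSD1-LKO list were examined in mouse liver. H3K4me2 is histone H3 dimethylated at lysine 4, and ChIP-seq maps it by sequencing DNA precipitated with an antibody against it. The members were chosen by their listing: an entry of the control list had an overlap of at least 600 bp between the peaks of its 2 libraries, and its first-listed peak overlapped no interval of either LSD1-LKO library. There were 1506 such control-only regions among 43891 control entries. Of the 20740 control entries with an overlap of at least 600 bp, 7.26% were control-only and the other 19234 are called retained here. The listing and the values it rests on describe how the regions were selected and are no finding.

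The study held 12 samples, of which 2 libraries per group gave the H3K4me2 lists of control and LSD1-LKO liver and another 2 gave the LSD1 list of wild type liver, all from C57BL/6 mice. The remaining 6 were control libraries without antibody per the labels, which the methods call IgG. LSD1-LKO mice were LSD1 fl/fl mice injected with AAV8-TBG-Cre as adults, whose thyroxine-binding globulin promoter directs Cre to hepatocytes, and the GFP control mice were LSD1 fl/fl mice injected with AAV8-TBG-GFP. The floxed alleles and an AAV8 injection were thus shared by both groups, and cells other than hepatocytes keep LSD1 in this model. Per the methods, LSD1-LKO and control mice were 6 to 7 weeks old when injected, were put on a high-fat diet 1 week later and gave tissue after 4 to 5 weeks of it, and most experiments used males. The ChIP-seq mice are not named there one by one, and for the wild type mice age, sex and diet are not given in the sources used here.

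LSD1, encoded by Kdm1a, is a demethylase that removes methyl groups from mono- and dimethylated lysine 4 of histone H3. H3K4me2 marks both promoters and distal regulatory elements, and in liver it accompanies genes that are active or can be activated by hormones and feeding. LSD1 acts within repressor complexes with CoREST proteins, which are brought to DNA by factors such as GFI1.

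Each deposited list holds the peaks that MACS called in both libraries of a group, with the overlap covering at least 50% of the first-listed peak. A region absent from the LSD1-LKO list may still carry a peak in 1 LSD1-LKO library or a peak below the calling threshold, and absence from the list is not absence of the mark. Read counts are not part of the lists. Library depth is therefore unknown, and no level in LSD1-LKO liver can be given for a control-only region. With 2 libraries per group pooled into 1 list, no test between groups of mice was possible. Where shares are given with 95% Wilson intervals, these cover counting error only, since neighboring regions and genes are not independent replicates. The markers fitted the labelled tissue: 14 of 15 hepatocyte genes had a control H3K4me2 entry at the promoter, against 0 of 13 genes of Kupffer cells and macrophages and 0 of 12 lymphocyte genes. Of the other liver cells, 6 of 13 endothelial, 1 of 12 stellate and 5 of 10 cholangiocyte genes had one. In whole liver, fewer cells of a type and less of the mark per cell cannot be told apart.

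The sequences of 7 control-only regions are shown because they span the kinds of region described here. They are the central 200 bases of each region in mm10 (GRCm38), plus strand, and capitals mark the letters GGGCGG (SP1), CGGAAG (the ETS core), AGATAA (for the family of Gata6) and AAATCA (GFI1) on either strand. Ruvbl2, Phc1 and Xdh stand for promoters, Zfp629 and Id1 for CpG-rich distal regions, and Fam20a and Tat for AT-rich distal regions.
Ruvbl2 promoter, chr7:45434017-45434216: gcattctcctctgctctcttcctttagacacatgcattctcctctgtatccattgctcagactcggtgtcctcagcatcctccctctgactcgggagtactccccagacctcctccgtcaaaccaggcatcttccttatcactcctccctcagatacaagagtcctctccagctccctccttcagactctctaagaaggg
Phc1 promoter, chr6:122339759-122339958: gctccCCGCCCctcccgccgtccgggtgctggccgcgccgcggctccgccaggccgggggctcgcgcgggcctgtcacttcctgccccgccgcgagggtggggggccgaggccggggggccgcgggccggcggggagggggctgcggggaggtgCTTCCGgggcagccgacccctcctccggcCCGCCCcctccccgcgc
Xdh promoter, chr17:73948038-73948237: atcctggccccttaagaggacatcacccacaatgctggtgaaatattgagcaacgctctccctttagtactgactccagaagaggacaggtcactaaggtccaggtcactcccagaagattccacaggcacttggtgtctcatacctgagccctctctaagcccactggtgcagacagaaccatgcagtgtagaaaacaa
Zfp629 distal, chr7:127637079-127637278: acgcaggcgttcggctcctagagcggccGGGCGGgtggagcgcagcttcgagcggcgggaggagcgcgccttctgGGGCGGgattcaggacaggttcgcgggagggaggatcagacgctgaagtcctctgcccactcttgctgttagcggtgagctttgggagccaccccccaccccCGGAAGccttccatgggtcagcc
Id1 distal, chr2:152739420-152739619: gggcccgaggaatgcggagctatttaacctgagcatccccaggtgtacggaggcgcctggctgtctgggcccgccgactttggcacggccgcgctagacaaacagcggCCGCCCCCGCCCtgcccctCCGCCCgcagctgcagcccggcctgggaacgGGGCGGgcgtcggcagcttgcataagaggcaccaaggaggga
Fam20a distal, chr11:109705653-109705852: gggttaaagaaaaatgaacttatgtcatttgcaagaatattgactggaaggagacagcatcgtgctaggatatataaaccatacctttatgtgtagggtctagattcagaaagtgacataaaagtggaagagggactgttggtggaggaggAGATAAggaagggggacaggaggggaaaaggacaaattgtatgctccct
Tat distal, chr8:109992899-109993098: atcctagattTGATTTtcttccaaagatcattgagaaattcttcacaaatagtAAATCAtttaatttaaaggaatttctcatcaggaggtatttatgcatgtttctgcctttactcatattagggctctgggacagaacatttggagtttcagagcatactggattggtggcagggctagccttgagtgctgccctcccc
The Phc1 window had a GC content of 86.0% with 29 CpG dinucleotides, whereas the Tat window had 39.5% with 0. The Id1 window held 4 matches to the SP1 letters, the Fam20a window 1 match to the Gata letters, and the Tat window 2 matches to the GFI1 letters. The Ruvbl2 and Xdh windows held none of these letters.

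Control-only regions were narrow and weak within the control list, as described by the values that also governed the listing. Their overlap had a median of 748.5 bp, against 1086.5 bp in retained regions, and ran from 600 to 3292 bp. The fold enrichment, the ChIP pileup at the peak summit over the local background, had a median of 3.36 in the first-listed and 4.21 in the second-listed control library, against 4.43 and 6.12 in retained regions. By mean −log10 p-value their median percentile in the control list was 40.7, and 56.9 for promoter and 36.7 for distal regions. Both libraries reached a q-value of 0.05 or less in 932 of 1506 control-only regions (61.9%) and in 89.7% of retained regions. When the 20740 entries were split by mean −log10 p-value into 4 sets of 5185, 1086 of the lowest set were control-only and 62 of the highest.

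The share of entries listed only in control fell with each step in overlap. It was 53.2% of entries under 300 bp, 24.6% of those from 500 to 599 bp, 18.1% of those from 600 to 699 bp and 0.971% of those of 1500 bp or more. Over all 43891 entries it was 24.7%. In the first-listed library, members just inside the limit had the same median fold as control-only entries just outside it. The 119 control-only entries from 600 to 619 bp had median folds of 2.98 and 4.04, and the 161 from 580 to 599 bp had 2.98 and 3.60. Promoter regions were 26 of the 119 and 22 of the 161, and 12.6% and 9.32% had an LSD1 peak. A region near Abcg1, with an overlap of 600 bp, had folds of 4.10 and 6.48, and one at the Igsf10 promoter, with 599 bp, had 3.36 and 4.68.

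**Figure D1:**
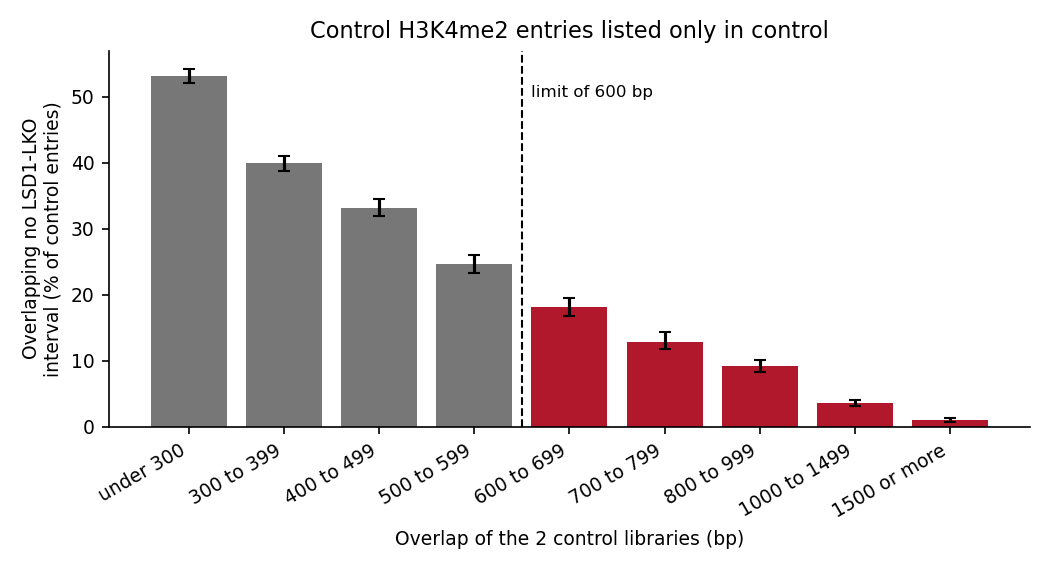
Share of control H3K4me2 entries that overlapped no LSD1-LKO interval (y axis, percent) by the overlap of the 2 control libraries (x axis, bp), with 95% Wilson intervals as error bars and the 600 bp limit as a dashed line. The share falls from 53.2% of entries under 300 bp to 0.971% of those of 1500 bp or more.

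**Figure D2:**
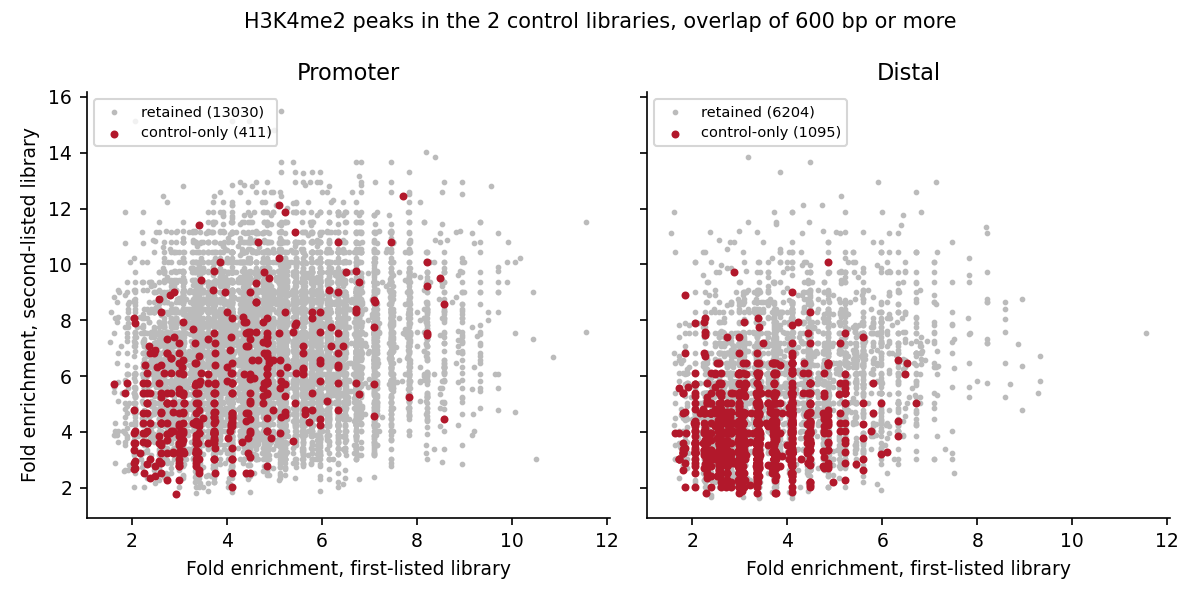
Fold enrichment of each control entry with an overlap of at least 600 bp in the first-listed (x axis) and second-listed (y axis) control library, for promoters and distal regions, with control-only regions in red and retained regions in gray. Control-only regions lie in the lower part of the range, with median folds of 3.36 and 4.21, and overlap the retained regions throughout it.

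Many control-only regions lay close to a region that was still listed in LSD1-LKO liver. The gap to the nearest LSD1-LKO interval was under 1 kb in 482 regions (32.0%, interval 29.7 to 34.4%), 1 to 10 kb in 580 (38.5%) and 10 kb or more in 444 (29.5%), with a median of 3041 bp. Among promoter regions 37.7% were 10 kb or more away, and among distal regions 26.4%. In 207 regions (13.7%) the second-listed control peak, which the rule did not use, did overlap an LSD1-LKO interval. A gap under 1 kb describes a control peak beside an LSD1-LKO peak of the same element as well as a separate element, which the lists cannot tell apart.

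Distal regions made up most of the control-only regions. Regions that reached within 1 kb of a transcription start site (TSS) of a protein-coding gene were counted as promoter regions, and 411 of 1506 control-only regions were such (27.3%, interval 25.1 to 29.6%), against 67.7% of retained regions (67.1 to 68.4%). Read the other way, 3.06% of promoter entries and 15.0% of distal entries of at least 600 bp were control-only. The regions listed only in LSD1-LKO had a like promoter share of 22.4% (466 of 2079, 20.7 to 24.3%), so the distal weight was seen in both one-sided sets. The center lay in an intron in 57.6% of control-only regions, between genes in 33.5%, in a UTR exon in 5.71% and in a coding exon in 3.19%. Of the 1095 distal regions 446 (40.7%) were centered within 10 kb of a TSS, 439 (40.1%) at 10 to 50 kb and 210 (19.2%) beyond 50 kb, against 47.6%, 37.3% and 15.1% of retained distal regions. TSSs of genes that do not code for protein lay within 1 kb of 76 distal control-only regions (6.94%, 5.58 to 8.60%) and of 13.4% of retained ones.

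The promoter region with the highest mean −log10 p-value was that of Suv39h2, which encodes a histone H3 lysine 9 methyltransferase. It lay at chr2:3474157-3475671, centered in a coding exon 46 bp downstream of the TSS, with folds of 7.71 and 12.5 in the 2 control libraries. The nearest LSD1-LKO interval was 35962 bp away and no LSD1 peak overlapped it. Both libraries placed it far above the control-only medians of 3.36 and 4.21.

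The region next to Ruvbl2, an ATPase of chromatin remodeling complexes, had folds of 7.46 and 10.8 and also touched the promoter of Gys1, the glycogen synthase of muscle. Its nearest LSD1-LKO interval was 19080 bp away. At Mafg, a small Maf transcription factor, the region had folds of 8.48 and 9.50, but an LSD1-LKO interval lay 964 bp from it. Mxra8, a cell surface protein, had folds of 5.09 and 12.1, which differ more between the libraries than those of the other leading promoters without an LSD1 peak. Rras, a small GTPase, had folds of 8.21 and 10.1 with an LSD1-LKO interval 399 bp away.

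The other 3 of the 8 leading promoter regions carried an LSD1 peak and lay within 400 bp of an LSD1-LKO interval. Nup50, a nuclear pore component, had H3K4me2 folds of 8.21 and 9.22 and LSD1 folds of 5.34 and 3.56. Sf3a2, a splicing factor, had H3K4me2 folds of 5.22 and 11.9, with LSD1 folds of 2.67 and 1.95. Lrp1, a lipoprotein receptor that takes up remnants in liver, had H3K4me2 folds of 8.58 and 8.57, with LSD1 folds of 4.36 and 2.96. None of these 3 genes was among those without an LSD1-LKO interval at the promoter, described further on.

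The 8 leading distal regions lay both near and far from LSD1-LKO intervals. Zfp629, a zinc finger gene, was nearest to a region 21382 bp upstream of its TSS with folds of 4.85 and 10.1. The region near Tent5b lay 11858 bp upstream with folds of 4.09 and 9.0, and that near Igfbp7, a binding protein for insulin-like growth factors, 52145 bp upstream with 4.09 and 7.82. All 3 were over 10 kb from any LSD1-LKO interval and had no LSD1 peak. The distal regions near Dync1h1, Ern1, Fam20a and Id1 overlapped LSD1 peaks and lay 151 to 379 bp from an LSD1-LKO interval. Ern1 encodes the IRE1 sensor of the unfolded protein response, and its region 13509 bp upstream had even folds of 6.51 and 6.48. An intronic region of Tat, the tyrosine aminotransferase of hepatocytes, had folds of 6.34 and 6.59 and lay 123 bp from an LSD1-LKO interval.

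The control-only region with the largest overlap of the 2 libraries covered the promoter of Xdh, the xanthine dehydrogenase that forms uric acid, at chr17:73946104-73950171. The libraries shared 3292 bp of it and their folds were 2.88 and 9.0, so that the second-listed library was the higher by far. An LSD1 peak with folds of 7.29 and 6.42 overlapped its upstream end, and the nearest LSD1-LKO interval was 1211 bp away. Gata6, an endoderm transcription factor, had the region with the next largest overlap, 3147 bp, and folds of 3.70 and 9.07. Gata6 was nearest to 4 control-only regions, 2 at its promoter and 2 distal, and those at and upstream of its promoter lay 70120 to 74486 bp from any LSD1-LKO interval. The fourth, 101620 bp downstream of its TSS, lay 14510 bp from one. LSD1 peaks overlapped 3 of the 4, with LSD1 folds between 2.00 and 3.73. The remaining 3 of the 5 largest overlaps were at the promoters of Ubn1 with Glyr1 (3083 bp), Gclm (2786 bp) and Fgd6 (2762 bp). Gclm encodes the regulatory subunit of the enzyme that limits glutathione synthesis, and its region had folds of 5.43 and 11.2 with an LSD1 peak and an LSD1-LKO interval 238 bp away.

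Control-only regions were spread over 1306 nearest genes, of which 27 were nearest to 3 or more and 7 to 4 or more. Cdh2, which encodes N-cadherin, had 5, all in introns, with folds from 2.05 to 5.97 in the first-listed and from 3.21 to 4.38 in the second-listed library. Their gaps to an LSD1-LKO interval ran from 83 to 1959 bp and none had an LSD1 peak. Akap13, Clstn3, Gata6, Hbs1l, Por and Rere had 4 each. Por encodes the reductase that passes electrons to microsomal cytochromes P450, and its 4 regions had folds of 2.48 to 3.75 and 2.78 to 6.48.

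At the level of genes, 440 of the 11525 genes with a promoter entry of at least 600 bp had a control-only promoter region, or 3.82%. Of these 440, 231 also had an LSD1-LKO interval at a promoter and another 2 kept a further control entry that overlapped one. The remaining 207 genes had no LSD1-LKO interval at any of their promoters, which is 1.80% of the 11525. An LSD1 promoter peak was listed for 36 of the 207 genes (17.4%), for 112 of the 233 others (48.1%) and for 43.3% of the 11525. A peak at any TSS of a gene counted, and these shares were matched neither by overlap nor by the number of TSSs per gene. The 207 genes included Suv39h2, Mxra8, Ruvbl2, Gys1, Phc1, Xdh, Gata6, Ubn1 and Glyr1 named above.

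Transcription factors and Wnt signals of embryonic development were noticed among the 207, and this family was chosen after its values were seen. Its symbols were picked with the names of the 207 in view, and overlap was not matched. Its share is therefore not on equal terms with that of all genes. By symbol, 193 genes of the Hox, Irx, Six2-related, Tbx, Sox, Osr, Gata, Mef2, Scrt, Lhx, Pax, Nkx, Fox and Wnt families were taken, of which 68 had a promoter entry of at least 600 bp. For Nkx and Fox, any symbol with that start counted. A control-only promoter region was found at 13 of the 68, and all 13 belonged to the 207 genes without an LSD1-LKO promoter interval (19.1%, beside 1.80% of all genes with such an entry). They included Gata6, Hoxa4, Hoxc9, Irx2, Mef2b, Mef2c, Osr2, Scrt2, Six2, Sox18, Tbx2 and Wnt7b, of which Gata6 was the 1 with an LSD1 promoter peak. Mef2b shared control-only promoter regions with Borcs8 and Rfxank, to whose TSSs the region centers were nearest. Folds at Hoxa4 were 3.41 and 5.72 with an overlap of 1559 bp, and the region was 11384 bp from an LSD1-LKO interval. Folds at Osr2 were 5.97 and 7.58. Folds at Hoxc9 were 2.94 and 1.77, at percentile 3.14 of the control list, close to the lowest of all members.

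LSD1 peaks, which the rule did not use, overlapped fewer control-only than retained regions. The LSD1 list holds 14584 entries from wild type liver, and 232 of 1506 control-only regions overlapped one (15.4%, interval 13.7 to 17.3%). Of all control entries of at least 600 bp 29.7% did, of retained regions 30.8% (30.2 to 31.5%) and of regions listed only in LSD1-LKO 14.5% (13.0 to 16.1%). At promoters the share was 82 of 411 control-only regions (20%, 16.4 to 24.1%) against 35.2% of all promoter entries of that width. At distal regions it was 150 of 1095 (13.7%, 11.8 to 15.9%) against 19.6% of all such distal entries. The share was below that of retained regions under each of the 20 alternatives tried for promoters and the 20 for distal regions.

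The share with an LSD1 peak was higher in wide regions of both classes, so the classes were also set side by side within bins of overlap. Within the overlap bin of 600 to 699 bp, 14 of 123 promoter regions had an LSD1 peak (11.4%, 6.90 to 18.2%) against 25.5% of retained ones (23.1 to 28.1%), and the intervals did not overlap. At 1500 bp or more the shares were 42.9% (28.0 to 59.1%) and 46.3%, with overlapping intervals. At promoters from 700 to 799 bp the intervals touched, with 13.3% (7.41 to 22.8%) and 24.7% (22.2 to 27.3%). For distal regions the intervals overlapped in every bin. From 600 to 699 bp the distal shares were 11.8% (9.15 to 15.2%) and 15.7% (13.9 to 17.7%), and at 1500 bp or more 35.3% (17.3 to 58.7%) and 33.6%. Within the 4 sets by mean −log10 p-value, the promoter intervals were apart in the lowest and second sets and overlapped in the upper ones. The distal intervals were apart in the lowest set only. In the lowest set 12% (8.12 to 17.3%) of promoter regions had an LSD1 peak against 22.1% (19.8 to 24.6%) of retained ones, and in the second 13.7% (8.17 to 22.0%) against 31.6% (30 to 33.3%). In the third and highest sets the promoter shares were 33.8% and 40.7% (29.1 to 53.4%) against 35.8% and 41.6%. Distal shares were 12.4% (10.4 to 14.7%) against 16.9% (15.6 to 18.3%) in the lowest set, with intervals apart, and 16.4% (11.6 to 22.6%) against 22.4% (20.6 to 24.3%) in the second. In the third set the distal share was the higher in control-only regions, at 10 of 27 (37.0%, 21.5 to 55.8%) against 24.4% (21.7 to 27.3%) with overlapping intervals, and the highest set held 3 distal control-only regions, 1 with an LSD1 peak.

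**Figure D3:**
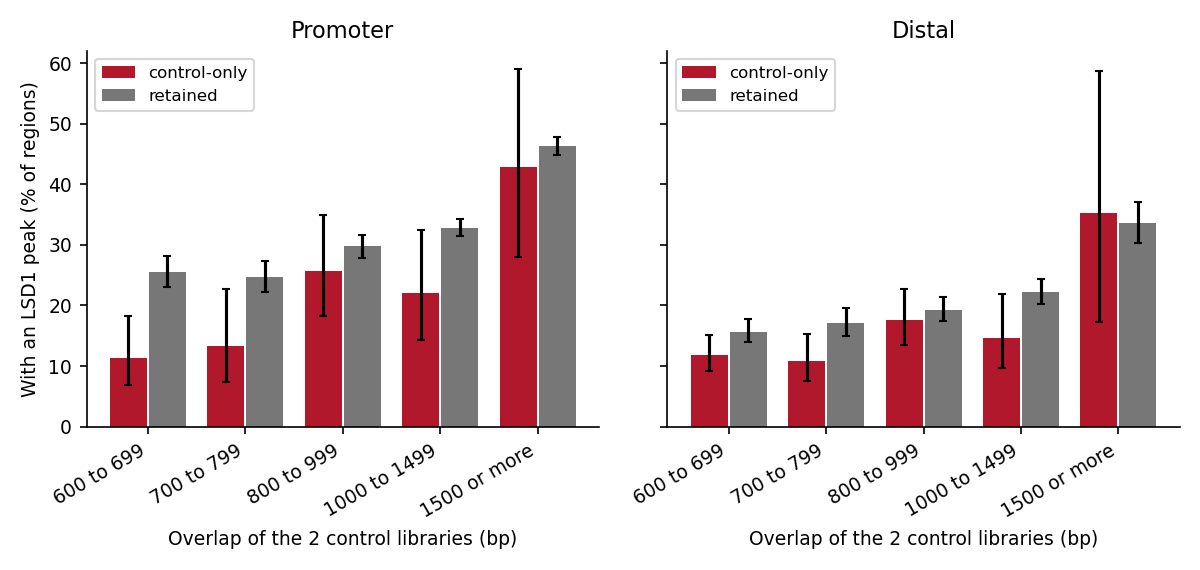
Share of control-only (red) and retained (gray) regions that overlap an LSD1 peak (y axis, percent) by the overlap of the 2 control libraries (x axis, bp), for promoter and distal regions, with 95% Wilson intervals. At promoters of 600 to 699 bp the shares are 11.4% and 25.5%, and at 1500 bp or more 42.9% and 46.3%.

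The LSD1 peaks in control-only regions had median folds of 3.18 and 3.23 and a median percentile of 59.3 in the LSD1 list. They ranked higher at promoters (69.4) than at distal regions (53.9). At promoters the strongest was that of Dhx30, an RNA helicase, at percentile 99.8 with LSD1 folds of 9.49 and 8.55. The H3K4me2 region there had folds of 5.12 and 5.56, an overlap of 2300 bp and a gap of 12174 bp, and it also touched the promoter of Smarcc1. Among promoters Xdh followed at percentile 99.2, then Phc1, a Polycomb protein, at 97.2 with LSD1 folds of 3.39 and 6.98. At Sepsecs and Klf10 the LSD1 percentiles were 96.0 and 95.7, and an LSD1-LKO interval lay 454 and 337 bp away. The leading distal regions with an LSD1 peak were those near Apol8 at percentile 98.3, Synpo at 98.2, Fam20a at 97.9, Cnpy3 at 97.1 and Dusp6 at 96.6. Dusp6 encodes a phosphatase of ERK, and the libraries differed there with LSD1 folds of 3.87 and 6.63. The share with an LSD1 peak was 28.8% (21.9 to 36.8%) of promoter regions with a gap under 1 kb and 15.5% (10.6 to 22.0%) of those with a gap of 10 kb or more.

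Genes of hepatocyte metabolism were then grouped by function. Beside each count stand the backgrounds of 3.82% of genes with a promoter entry of at least 600 bp that had a control-only promoter region, and of 15.0% of distal entries that were control-only. Of all 21938 protein-coding genes 4.39% were nearest to a distal control-only region, but genes of the liver have more distal H3K4me2 entries to begin with, so distal counts are given per entry. The promoter counts have no interval, and neither kind of count was matched by overlap.

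The P450 genes, oxidases of drugs, steroids and fatty acids, had a control-only promoter region at 5 of 36 genes (13.9%). They were Cyp2c39, Cyp2c68, Cyp2d9, Cyp2e1 and Cyp4a10, of which Cyp2c39, Cyp2c68 and Cyp4a10 had no LSD1-LKO promoter interval. These were 3 of the 36 genes, beside 1.80% of all genes with a promoter entry of that width. The region at Cyp2c68 was 2350 bp wide by overlap with folds of 1.89 and 5.76. That of Cyp4a10, an omega-hydroxylase of fatty acids under Ppara, had folds of 3.05 and 3.60 and an LSD1 peak. P450 genes are a family with near-identical copies, and reads that match several copies make their peaks uncertain. Near P450 genes 6 of 31 distal entries were control-only (19.4%, 9.19 to 36.3%).

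Genes of secreted plasma proteins had a control-only promoter region at 6 of 57 genes (10.5%), among them Afp, Apoe, Plg and Rbp4. Afp, the fetal alpha-fetoprotein, had no LSD1-LKO interval at a promoter. Apoe, the apolipoprotein of remnant particles, had folds of 3.59 and 6.07 over 1965 bp with an LSD1 peak, and its nearest LSD1-LKO interval was 228 bp away. Rbp4, the carrier of retinol, had folds of 6.11 and 5.11 over 1975 bp and a gap of 121 bp. Of distal entries near these genes 6 of 79 were control-only (7.59%, 3.53 to 15.6%). For bile acid synthesis and transport 2 of 25 genes had a control-only promoter region (8.0%). At Slc10a1, the NTCP transporter that takes bile acids up from blood, it spanned the TSS with folds of 5.12 and 6.12, and no LSD1-LKO interval stood at a promoter although one lay 277 bp beyond the region. The other was Hsd17b4, an enzyme of peroxisomal side chain oxidation, with folds of 2.31 and 2.87. Of distal entries near bile acid genes 5 of 43 were control-only (11.6%).

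Lipid and glucose genes showed no promoter and a background number of distal control-only regions. Of lipid and cholesterol synthesis genes 0 of 37 had a control-only promoter region, and 8 of 57 distal entries were control-only (14.0%, 7.29 to 25.3%). Elovl6 was nearest to 3 of them and Dgat2 to 2, and others were near Acaca and Fads1. Of genes of glucose metabolism and insulin signaling 0 of 30 had one at the promoter, and 12 of 98 distal entries were control-only (12.2%, 7.15 to 20.2%). These lay near 11 of 32 genes, among them Tat, Foxo1, Foxo3, Gbe1, Igf1, Irs2, Pfkfb1, Pik3r1, Ppp1r3b and Slc2a2, and 25 of the 32 genes were nearest to a distal entry at all. The region near Irs2, an adaptor of the insulin receptor, had folds of 2.61 and 5.72. For genes of the urea cycle and amino acid breakdown the counts were 1 of 35 promoters, at Sds, and 8 of 58 distal entries (13.8%, 7.16 to 24.9%).

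Regulators of liver genes had control-only regions of both kinds, at distal shares not set apart from the background. The distal interval of each list in this paragraph included the 15.0% of all distal entries. The promoter counts were 1 or 2 genes per list, too few to set apart from the background. Of nuclear receptors 2 of 41 genes had one at the promoter (4.88%), Rxra and Nr1d1, and 15 of 121 distal entries were control-only (12.4%, 7.66 to 19.4%). Ppara, the receptor that governs fatty acid oxidation in fasting, and Thrb, the main thyroid hormone receptor of liver, had 3 distal regions each. Of liver transcription factors 2 of 32 had one at the promoter (6.25%), Gata6 and Tef, and 11 of 106 distal entries were control-only (10.4%, 5.89 to 17.6%). The region near Xbp1, a factor of the unfolded protein response, had folds of 3.36 and 6.12. Clock genes had 2 of 24 promoters (8.33%), at Nr1d1 with folds of 4.10 and 5.76 and at Tef with 2.61 and 4.32, and 4 of 30 distal entries. For growth factor, Wnt, Notch and TGF-beta signaling it was 1 of 37 promoters, at Smad7, and 8 of 61 distal entries (13.1%, 6.80 to 23.8%).

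Mitochondrial genes were of interest to the study, whose list of 356 downregulated mitochondrial genes comes from expression in the same model and is not independent evidence. A control-only promoter region was found at 14 of the 338 with a promoter entry of at least 600 bp (4.14%). Of these 14 only Mecr, an enzyme of mitochondrial fatty acid synthesis, and Uqcrc2, a core subunit of respiratory complex III, had no LSD1-LKO promoter interval nor another retained entry. These were 2 of the 338 genes, beside 207 (1.80%) of all 11525 genes with such a promoter entry. Near genes of this list 34 of 159 distal entries were control-only (21.4%, 15.7 to 28.4%). This interval lies above the 15.0% of all distal entries. Many lists were looked at with no correction for their number, and the entries were not matched by overlap. On autosomes the control-only share of distal entries was 23.8% at 600 to 699 bp and 2.26% at 1500 bp or more. The 34 included a region near Etfa, the electron transfer flavoprotein, with folds of 6.71 and 5.05. Another lay near Slc25a42, a coenzyme A carrier, with 2.73 and 7.40.

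Uqcrc2 had 2 control-only regions, on either side of its TSS at position 120635176 of chromosome 7. The upstream one, chr7:120634377-120635092, had folds of 5.64 and 4.80 and overlapped an LSD1 peak with folds of 4.34 and 3.77. The downstream one, chr7:120635732-120636752, had folds of 6.34 and 4.80 and no LSD1 peak. The nearest LSD1-LKO interval was over 40 kb from both, at 41753 and 40093 bp. At Tfb2m, a factor of mitochondrial transcription, the region had folds of 6.34 and 9.0 and an LSD1 peak, and an LSD1-LKO interval lay 212 bp away. Of the subunits of oxidative phosphorylation 4 of 72 genes had a control-only promoter region (5.56%), Atp5b, Cox4i1, Ndufa7 and Uqcrc2, and 0 of 12 distal entries were control-only. Fatty acid oxidation and ketogenesis had 1 of 29 promoters, at Hsd17b4, and 7 of 54 distal entries (13.0%, 6.42 to 24.4%).

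The other lists were small or near the background. Conjugation enzymes had 2 of 29 promoters (6.90%), Sult1c2 and Sult2a8, and histone methylation enzymes and LSD1 partners 2 of 26 (7.69%), Setd7 and Gfi1. Gfi1 encodes a repressor that recruits LSD1, and its region had folds of 3.36 and 3.79 with an LSD1-LKO interval 55 bp away. Setd7 encodes a lysine methyltransferase, and its region had folds of 2.35 and 7.07 over 2199 bp. Sex-biased genes had 1 of 13, Cyp2d9, cell cycle genes 1 of 24, Ccnb2, adhesion and axon guidance genes 1 of 20, Ctnnd1, and inflammation and interferon genes 0 of 17. Their distal counts were 5 of 32 entries for conjugation enzymes, 2 of 26 for histone methylation, 3 of 13 for sex-biased, 2 of 13 for cell cycle, 8 of 40 for adhesion, of which 5 were at Cdh2, and 3 of 11 for inflammation genes. Ccnb2, a mitotic cyclin, had folds of 6.34 and 7.56 and no LSD1-LKO interval within 79952 bp. Among cell type markers with promoter entries of that width, hepatocyte genes had 1 of 13, Cyp2e1, and genes of endothelial cells 0 of 3, of stellate cells 0 of 1 and of cholangiocytes 0 of 3. At distal entries the counts were 4 of 51 for hepatocyte genes, 2 of 7 for cholangiocyte genes and 3 of 3 for endothelial genes, the last near Bmp2 and Stab2.

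**Figure D4:**
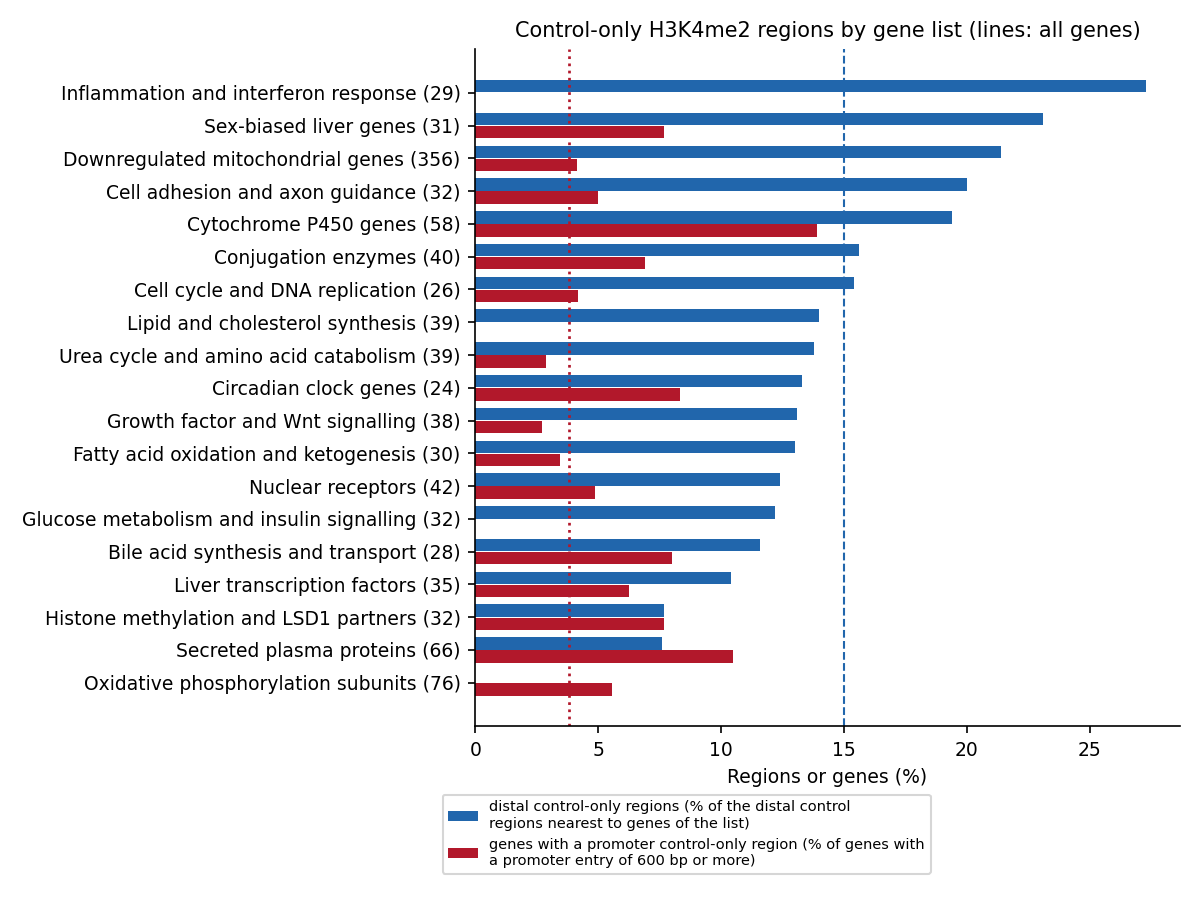
Control-only regions by gene list, with the number of matched genes in parentheses. Blue bars give the percent of distal control entries nearest to genes of the list that were control-only, red bars the percent of genes with a promoter entry of at least 600 bp that had a control-only promoter region, and the lines the values over all genes (15.0% and 3.82%). P450 genes have the longest red bar at 13.9%.

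The X chromosome held a larger share of control-only regions than any autosome. Of 216 entries on X 47 were control-only (21.8%, interval 16.8 to 27.7%), against 7.11% (6.77 to 7.47%) on the autosomes, which ran from 4.75% on chromosome 11 to 9.55% on chromosome 18. At promoters the shares were 32 of 175 (18.3%, 13.3 to 24.7%) and 2.86% (2.59 to 3.15%). Regions listed only in LSD1-LKO made up 9.70% of LSD1-LKO entries on X and 9.96% on autosomes. Entries on X were narrower, with a median promoter overlap of 507 bp against 948 bp in the control list and 415 against 785 bp in the LSD1-LKO list. Within the bin of 600 to 699 bp the control-only share of promoter entries was 29.8% (18.7 to 44.0%) on X and 8.80% (7.35 to 10.5%) on autosomes. The X share was the higher under each of the 11 alternatives tried. For an overlap of at least 1000 bp it was 3 of 63 entries (4.76%, 1.63 to 13.1%), and this interval included the 2.29% of autosomes. The list of LSD1-LKO held 570 entries on X and that of control 654, while on autosomes it held 50100 and the control list 43231.

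Among the 32 control-only promoter regions on X, a few were picked after their values were seen. Maoa, a monoamine oxidase of the mitochondrial outer membrane, had folds of 3.73 and 3.70, an LSD1 peak and no LSD1-LKO interval within 191546 bp. Gk, the glycerol kinase of liver, had folds of 4.48 and 5.40 and a gap of 342 bp, and Ogt, which attaches O-linked N-acetylglucosamine to proteins, had 2.61 and 4.32 with an LSD1 peak. Some of these regions thus lay beside listed LSD1-LKO intervals and some far from any. Y-linked promoters were listed in both groups, Ddx3y and Kdm5d in control and Uty in LSD1-LKO, and no entry stood at the Xist promoter in either list. No read depth or copy number can be had from the lists, and what sets the X chromosome apart was not tested.

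**Figure D5:**
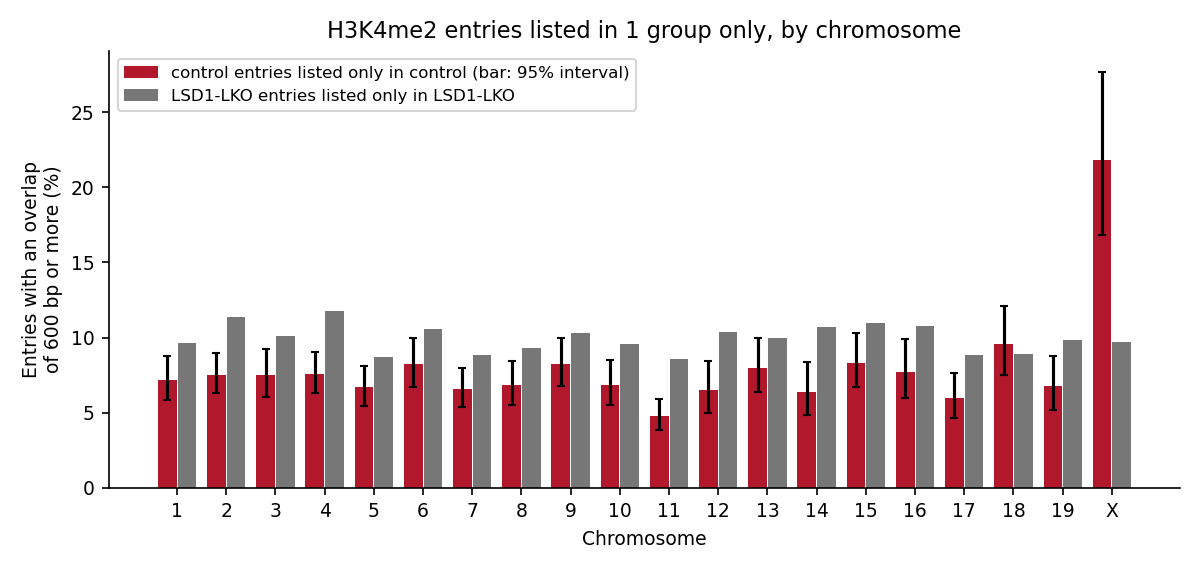
Share of H3K4me2 entries with an overlap of at least 600 bp that were listed in 1 group only (y axis, percent) by chromosome (x axis), with control-only shares in red with 95% Wilson intervals and LSD1-LKO-only shares in gray. The red bar reaches 21.8% on X and 4.75 to 9.55% on the autosomes.

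The sequence of control-only regions was less rich in CpG than that of retained regions. In windows of 500 bp at the region center, the median GC content of promoter regions was 52.4% against 56.4% in retained ones, and 52.2% against 54.2% among those of 600 to 999 bp overlap. A ratio of observed to expected CpG of 0.6 or more was found in 164 of 411 control-only promoters (39.9%, 35.3 to 44.7%) and in 52.8% (51.9 to 53.6%) of retained ones, and among those of 600 to 999 bp in 116 of 299 (38.8%, 33.4 to 44.4%) and 46.4% (44.9 to 47.9%). Promoter entries with a ratio under 0.6 were control-only in 3.86% (3.41 to 4.36%), and those at 0.6 or more in 2.33% (2.00 to 2.71%). These pooled shares were not matched by overlap. From 600 to 699 bp they were 10.2% (8.26 to 12.6%) and 8.65% (6.55 to 11.3%), and at 1500 bp or more both were 0.761%. The intervals were apart only from 1000 to under 1500 bp, at 2.60% (1.97 to 3.41%) and 1.24% (0.862 to 1.79%). Distal regions had a median GC content of 45.4%, against 47.8% in retained ones, and 47 of 1095 were CpG-rich (4.29%, 3.24 to 5.66%) against 10.8% (10 to 11.5%), or 4.43% (3.29 to 5.93%) against 8.51% (7.68 to 9.43%) for 600 to 999 bp. Of the 8 leading distal regions 3 were CpG-rich, and 2 had the TSS of a noncoding gene less than 1 kb away.

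Letters of 19 transcription factor motifs were searched in the same windows on both strands, NF1 and HNF1 being longer and given by name. Control-only and retained regions of 600 to 999 bp were set side by side. At promoters GGGCGG (SP1) was found in 107 of 299 control-only regions (35.8%, 30.6 to 41.4%) and 46.2% (44.7 to 47.7%) of the retained ones, and CGGAAG (ETS core, contained in the longer CCGGAAGT) in 14.7% (11.1 to 19.2%) and 20.8% (19.6 to 22.0%). The promoter windows were not matched by GC content, which was lower in the control-only ones. At distal regions GGGCGG was found in 104 of 949 control-only regions, or 11% (9.13 to 13.1%), against 17.1% (15.9 to 18.3%). The AT-rich letters went the other way at distal regions, with TGTTTAC (FOXA) in 11.9% (10 to 14.1%) against 8.87% (8.02 to 9.80%), AGATAA (for the family of Gata6) in 28.0% (25.3 to 31.0%) against 23.5% (22.2 to 24.9%) and AAATCA (GFI1) in 34.2% (31.3 to 37.3%) against 28.8% (27.4 to 30.3%). CAAAGTCCA (HNF4A) stood in 23 distal control-only regions (2.42%, 1.62 to 3.61%) against 1.41% (1.08 to 1.83%), with overlapping intervals.

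Base composition moved with these letters, so distal windows with 40 to 50% GC and 600 to 999 bp overlap were set side by side, with a median GC content of 45.4% and 45.6%. There AAATCA was found in 32.5% of 567 control-only and 32.9% of 2086 retained windows, TGTTTAC in 12.2% (9.73 to 15.1%) and 10.3% (9.03 to 11.6%), and AGATAA in 28.9% and 26.4%. GGGCGG remained lower at 5.64% (4.03 to 7.86%) against 9.40% (8.22 to 10.7%), and CAAAGTCCA was 2.65% (1.61 to 4.32%) against 1.15% (0.774 to 1.71%). For the remaining motifs the classes were set side by side at distal regions of 600 to 999 bp without the limit on GC content. There their intervals overlapped those of the retained regions. These motifs were GGTCAAAG (DR1), TTGCGCAA and TTGCNNAA (CEBP), CCGGAAGT (ETS), CGGAAG (ETS core), CCAATCA (NFY) and TGANTCA (AP1). The others were CACGTG (E-box), TTCNNNGAA (STAT5), TTANGTAA (PAR bZIP), CAAGGTCA (ERRA), TGACGTCA (CRE), NF1 and HNF1. A match of letters does not show that a factor binds there.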

How the data were processed

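ChIP-seq of H3K4me2 in control and LSD1-LKO liver and of LSD1 in wild type liver was analysed from 3 deposited lists, each made from 2 libraries. Per the submitters' processing notes and the methods, the authors aligned reads to mm10 with Bowtie2, called peaks per library with MACS2 against the control libraries, and intersected the libraries with bedtools 2.25.0. For each library the deposited lists hold the peak interval, the fold enrichment, a ratio over local background, the −log10 p-value and the −log10 q-value given by MACS2, and the overlap of both peaks in bp. Depth is not given in the lists, and 12 columns of integer scores and summit offsets were not used.

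Control entries with an overlap of at least 600 bp were compared with LSD1-LKO intervals of both libraries, 1 shared bp counting as overlap, and BEDtools 2.31.1 gave the same 1506 regions. Promoters were 1 kb on either side of TSSs of protein-coding genes in GENCODE release 21 of mouse, and other regions were distal and assigned to the nearest TSS. Sequence came from the mm10 (GRCm38) genome of RefSeq, with windows of 500 bp for composition and 200 bp for printing. The share of regions with an LSD1 peak, the promoter share and the distal entries of gene lists were counted with Wilson intervals at 95% confidence. The promoter counts of gene lists were given no interval. No test between groups was run, since a list pools its 2 libraries. The procedure was tested on simulated data. Analyses used Python 3.11.15, pandas 2.3.3, numpy 2.4.6, scipy 1.17.1, pysam 0.24.0 and matplotlib 3.10.9.

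Members and gene lists were chosen with earlier results of these data known. Named regions were the 8 promoter and 8 distal regions with the highest mean −log10 p-value, the 5 of each kind with the highest LSD1 peak, the 5 with the largest overlap, genes with the most regions, up to 4 genes of each kind per list, genes shown by the study with a promoter member, and entries at the 600 bp limit. Other genes are named to complete a count, or as chosen after their values were seen. Alternatives varied the overlap, the p-value, the library whose intervals were used, the distance, merging, the promoter definition and the LSD1 peaks. Results for some genes are not reported here.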

Additional observations from a re-analysis of the deposited data

How the results depend on the processing

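Of 108 values recomputed under 20 alternatives, 63 stayed within the 95% interval of the reported share or, for numbers, within 1.5 times, and 45 did not. Number, share of entries, promoter share, LSD1 share, promoter LSD1 share, distal LSD1 share and genes without an LSD1-LKO promoter interval are given in that order. With an overlap of at least 400 bp they were 4095, 13.9%, 20.4%, 9.99%, 12.1%, 9.45% and 370. With at least 1000 bp they were 258, 2.31%, 43.4%, 22.1%, 28.6%, 17.1% and 75. With a control p-value of 1e-05 or less in both libraries they were 406, 2.90%, 47.8%, 22.9%, 30.4%, 16.0% and 102.

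The share of entries was 6.26% with both control intervals free of LSD1-LKO intervals, 8.53% with neighbors merged, 5.55% with no LSD1-LKO interval within 500 bp and 4.94% within 1000 bp. At those distances the LSD1 share was 13.1% and 13.3%, and at promoters 16.1% and 15.4%. The promoter share was 32.1% for 2 kb, 24.8% for region centers and 20.1% for 1 TSS per gene. The LSD1, promoter LSD1 and distal LSD1 shares were 1.73%, 3.65% and 1.00% for LSD1 p-values of 1e-05 or less, 21.7%, 26.3% and 20% within 1000 bp of an LSD1 peak, and 9.36%, 11.4% and 8.58% where at least 50% of the LSD1 peak was covered. For LSD1 p-values of 0.01 or less the LSD1 share was 13.5% and the distal one 11.7%.

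With 1 library's intervals used at a time, there were 1312 to 2076 regions, 7.25% to 10% of entries and a promoter share of 26.0% to 28.8%. LSD1 shares were 16.1% to 16.8%, with 19.4% to 22.1% at promoters and 14.0% to 15.9% at distal regions, and the genes numbered 206 to 221. The highest number and share came from the intervals of the first-listed LSD1-LKO library. Each list holds only peaks called in both libraries, so these alternatives changed the coordinates used and left no library out. They cannot show what the lists would be without a library. On X the control-only share ran from 4.76% to 29.2% under 11 alternatives chosen after seeing the data. No paired analysis was possible because the columns carry no replicate numbers. Depth, the mark's level in LSD1-LKO liver and variation between mice cannot be had from these lists, and the cause of each shift was not tested.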
